A study of Mus musculus with 6 samples.

Results

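The genes described here are 35 genes of DNA replication and S phase, chosen by symbol from the 26881 genes of a heart expression table, and all 35 were found there, each once. RNA was sequenced from 3 WT and 3 Cfp1-cKO heart samples of mice at 2 weeks of age. Cfp1-cKO mice had the genotype Myh6-Cre: Cfp1 flox/flox, in which Cre is driven by the promoter of a cardiomyocyte myosin gene, so that Cfp1 is deleted in cardiomyocytes and not in the other cells of the heart. The WT hearts are described by the labels only as wild type, and which floxed or Cre alleles they carried is not given in the sources used here. The mouse lines were on the C57BL/6 background. Whether a sample was 1 heart or several is not stated, and p-values therefore speak only of the spread among these samples. The comparison asked whether replication genes differed between the genotypes, library by library. It also asked whether genes classed here as replication-specific behaved like those that DNA repair uses as well.

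DNA replication begins when origins are licensed, as Cdc6 and Cdt1 load the Mcm2 to Mcm7 helicase onto DNA. Mcm10, Cdc45 and the GINS complex then activate the helicase, primase and the polymerases copy the DNA around the sliding clamp Pcna, and Fen1 and Lig1 finish the lagging strand. Many of these genes are transcribed in late G1 and S phase under E2F transcription factors, so their RNA is low in tissue whose cells have left the cycle, and mouse cardiomyocytes largely stop dividing soon after birth. The genes were placed in 2 classes. Of the 35, 22 were classed as replication-specific and 13 as shared with repair, namely Pold1, Pcna, Rfc1 to Rfc5, Fen1, Lig1, Rpa1 to Rpa3 and Rrm1, which also act in repair of DNA outside S phase.

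Promoters are shown first because the E2F site is the element through which much of this group is known to be controlled. RefSeq promoter windows on GRCm38.p6, from 250 bases before to 50 bases after each start, were available for 28 of the 35 genes, in 32 windows. The letters TTTCCCGC, TTTCGCGC, TTTGCCGC or TTTGGCGC were searched on both strands as E2F-like, where overlapping matches were each counted, together with the CCAAT box. E2F-like letters were found in the windows of 11 of the 28 genes (39.3%), in 8 of 16 replication-specific genes and in 3 of 12 genes shared with repair. Among all 27025 genes with a window the share was 2.61%, and among the tested genes defined below it was 4.52%. It was 32.8% among 64 other replication genes, and 1 of 20 mitosis genes had such letters. By window, 34.4% of 32 windows held them, against 2.26% of 32851. CCAAT stood in 59.4% of the 32 windows and in 37.4% of all windows. A match of letters is a description of the sequence and does not show binding. The lines below give the 180 bases just before the start, 5′ to 3′ on the gene's own strand, with E2F-like letters and CCAAT boxes in capitals, for 3 genes with E2F-like letters and 2 without, the latter being the 1 gene called below and the large subunit of the single-strand binding complex.
Mcm5, chr8:75109329-75109508, plus strand: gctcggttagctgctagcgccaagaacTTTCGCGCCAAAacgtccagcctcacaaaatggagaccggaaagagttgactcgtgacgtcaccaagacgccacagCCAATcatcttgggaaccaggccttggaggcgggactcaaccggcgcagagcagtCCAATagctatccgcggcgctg
Mcm6, chr1:128359706-128359885, minus strand: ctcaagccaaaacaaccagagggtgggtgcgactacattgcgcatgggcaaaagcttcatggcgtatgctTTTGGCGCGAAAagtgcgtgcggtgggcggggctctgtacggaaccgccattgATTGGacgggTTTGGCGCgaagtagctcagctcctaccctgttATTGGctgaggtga
Pola1, chrX:93632156-93632335, minus strand: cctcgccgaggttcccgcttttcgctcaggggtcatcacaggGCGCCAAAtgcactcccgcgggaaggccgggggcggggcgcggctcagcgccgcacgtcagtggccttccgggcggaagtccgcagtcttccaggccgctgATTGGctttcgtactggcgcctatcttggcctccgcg
Mcm2, chr6:88898781-88898960, minus strand: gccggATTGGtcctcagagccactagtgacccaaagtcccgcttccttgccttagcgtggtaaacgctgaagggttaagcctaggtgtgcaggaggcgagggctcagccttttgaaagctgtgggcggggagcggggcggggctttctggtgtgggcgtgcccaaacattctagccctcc
Rpa1, chr11:75348384-75348563, minus strand: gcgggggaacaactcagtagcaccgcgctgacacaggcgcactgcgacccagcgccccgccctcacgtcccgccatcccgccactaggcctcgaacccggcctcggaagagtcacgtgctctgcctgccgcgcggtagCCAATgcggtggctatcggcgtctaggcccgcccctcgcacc
In Mcm5 the E2F-like letters began 153 and 149 bases before the start, on opposite strands. Mcm6 had 3 matches, beginning 110, 106 and 47 bases before the start, and Pola1 had 1 at 138 bases. Mcm2 had only a CCAAT box, 175 bases before the start, and Rpa1 only a CCAAT box at 42 bases.

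Expression was deposited as FPKM (fragments per kilobase of exon, scaled to the library's total), and library totals worked back from the steps of 1 fragment were 16672652 to 22700811 fragments. At this depth 1 fragment in 2 kilobases of exon came to 0.0220 to 0.02999 FPKM. Genotypes were compared with limma on log2(FPKM + 1) over the 11017 genes averaging 1 FPKM or more, called the tested genes, and calls required both an adjusted p (Benjamini-Hochberg) under 0.05 and a log2 fold change beyond 0.5 in either direction. Fold changes on this scale understate the change of low genes. Cxxc1, which encodes Cfp1, measured 9.66, 12.9 and 10.0 FPKM across the WT libraries, beside 8.02, 9.94 and 8.74 FPKM across Cfp1-cKO, overlapping ranges (log2 fold change -0.26, standard error 0.16, limma adjusted p = 0.249). Since every cell and every exon contributes to these numbers, they are no direct measure of the deletion. Cardiomyocyte genes were abundant in every library, with a summed level of 10 markers of 18516 to 23601 FPKM in WT and 13129 to 17050 FPKM in Cfp1-cKO hearts. Markers of lung epithelium, 12 genes, summed to 1.19 to 4.87 FPKM in WT and to 3162 to 4795 FPKM in Cfp1-cKO hearts, with Lamp3, Cldn18 and Nkx2-1 at 0 in all WT libraries. The part of these lung transcripts in the results below was not tested. In bulk samples such as these, fewer cells of a type and less RNA per cell cannot be told apart.

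Across the 35 replication genes, 1 gene, Mcm2, was called higher in Cfp1-cKO hearts and none was called lower. This count covers the 24 genes that were tested, 13 replication-specific and 11 shared with repair. Among these, Mcm2, Mcm5, Pola1, Pold1, Prim1 and Lig1 had a WT mean below 1 FPKM. They passed the filter only through their Cfp1-cKO values, and the call of Mcm2 carries that limit. Of all tested genes 21.1% were called higher and 1.68% lower. Of the 24, 4 had an unadjusted p below 0.05 in limma, against 43.8% of all tested genes. The other 11 genes, Cdc6, Cdt1, Mcm10, Gins2, Gins3, Prim2, Pole, Rfc5, Fen1, Tyms and Tk1, had a mean below 1 FPKM. With the filter lowered to 0.1 FPKM, 34 of the 35 genes were tested and none was called in limma, against 14.9% of all such genes called higher and 0.944% lower, with 5 of the 34 genes at an unadjusted p below 0.05 against 40.5% of all such genes.

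The values turned on 1 library. Of the 35 genes, 32 reached their highest level in Cfp1-cKO replicate 2, whereas 34.2% of all tested genes did, and 34.8% of all genes averaging 0.1 FPKM or more. The 32 included all 22 replication-specific genes and 10 of 13 shared with repair. The exceptions were Rfc1, highest in Cfp1-cKO replicate 3, Rpa1, highest in WT replicate 3, and Rpa2, highest in WT replicate 2. The median of the 22 replication-specific genes was 0.577, 0.539 and 0.796 FPKM in the WT libraries and 1.02, 3.17 and 1.03 FPKM in Cfp1-cKO replicates 1, 2 and 3. The median of the 13 genes shared with repair was 2.29, 1.96 and 2.10 FPKM in WT and 2.90, 6.07 and 2.98 FPKM in Cfp1-cKO hearts. In both classes Cfp1-cKO replicate 2 stood apart, and replicates 1 and 3 lay close to each other and nearer to WT. With Cfp1-cKO replicate 2 left out, no replication gene was called in limma, when 4.88% of tested genes were still called higher and 0.454% lower.

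**Figure D1:**
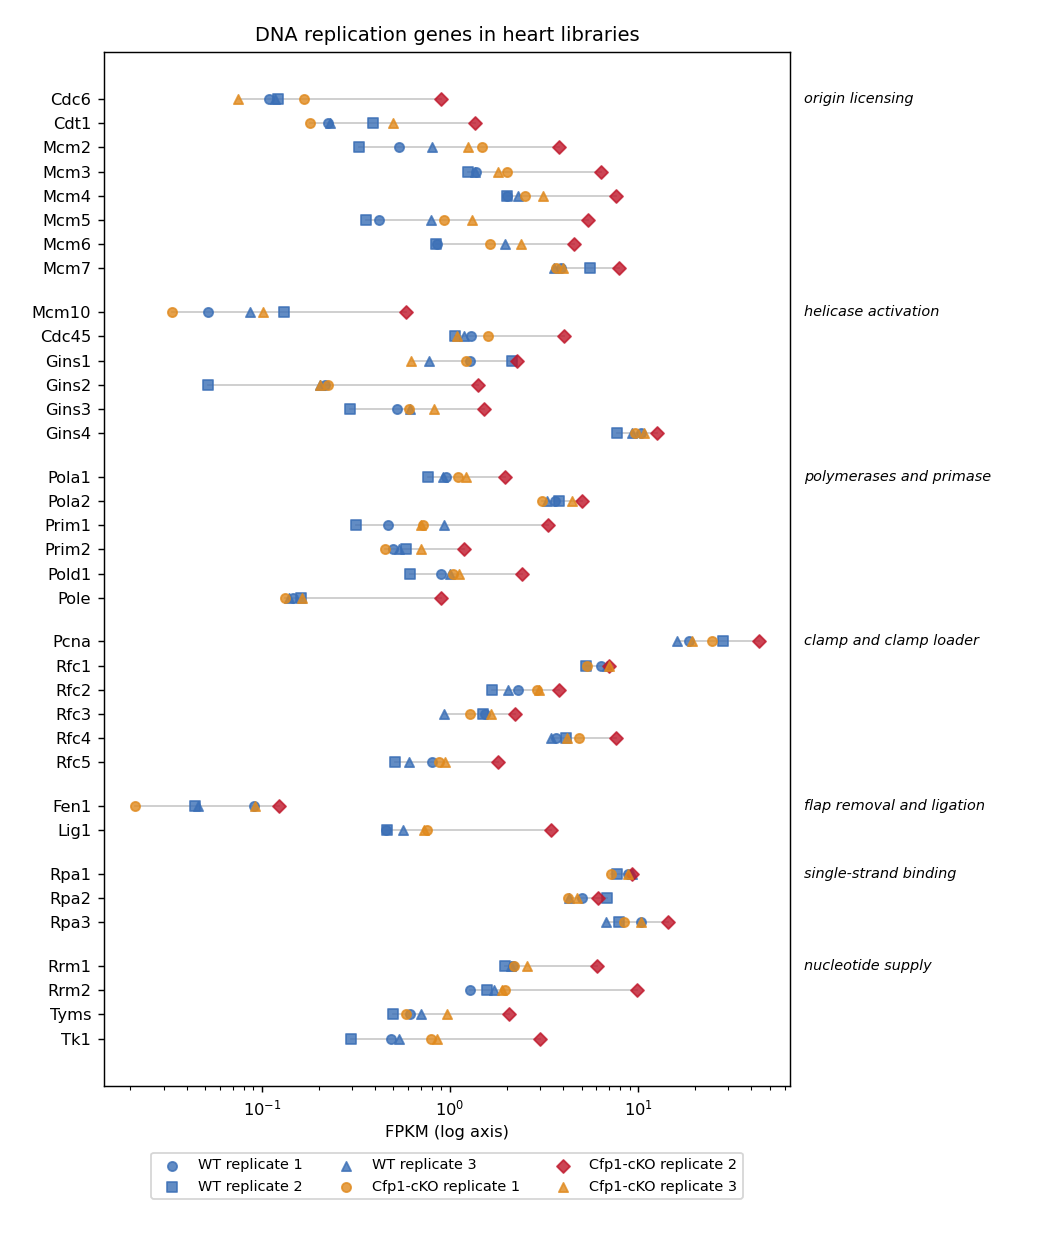
FPKM (horizontal, log axis) of the 35 replication genes, grouped by role, with 1 point per library and no error bars. Cfp1-cKO replicate 2 (red diamonds) is the highest of the 6 libraries for 32 genes, and the other points of a gene mostly lie close together.

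Origin licensing genes gave the 1 call and the widest differences. Mcm2, a subunit of the replicative helicase (ENSMUSG00000002870, chromosome 6 from 88883474 to 88898780 of GRCm38, minus strand), stood at 0.538, 0.328 and 0.798 FPKM in WT, with Cfp1-cKO libraries at 1.48, 3.80 and 1.24 FPKM. All 3 Cfp1-cKO values lay above all 3 WT values, as in 46.4% of all tested genes, and the largest was that of replicate 2. The WT mean was 0.555 ± 0.236 FPKM (SD, n = 3), and the Cfp1-cKO mean of 2.18 ± 1.41 FPKM (SD, n = 3) was 3.92 times as high. The log2 fold change was 0.96 (standard error 0.29, limma adjusted p = 0.0475). Behind these values stood 43 to 100 fragments per WT library and 156 to 441 fragments per Cfp1-cKO library. The call depended on the settings, and Mcm2 was called in 7 of 20 alternatives, with adjusted p between 0.00348 and 0.362. Without Cfp1-cKO replicate 2 its log2 fold change was 0.61 (limma adjusted p = 0.111), and after median-of-ratios scaling it was 0.73 (limma adjusted p = 0.151). With that scaling none of the 24 was called, against 3.74% of tested genes called higher and 3.25% lower.

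The other subunits of the helicase differed in how far the groups overlapped. Mcm5 had WT values of 0.419, 0.359 and 0.793 FPKM and Cfp1-cKO values of 0.926, 5.42 and 1.31 FPKM, with no overlap (log2 fold change 1.01, standard error 0.41, limma adjusted p = 0.0947). Mcm3 measured 1.37, 1.24 and 1.36 FPKM across the WT libraries, beside 2.00, 6.36 and 1.80 FPKM across Cfp1-cKO (log2 fold change 0.77, standard error 0.34, limma adjusted p = 0.119). Mcm4 stood at 2.01, 2.01 and 2.31 FPKM in WT, with Cfp1-cKO libraries at 2.49, 7.64 and 3.12 FPKM (log2 fold change 0.68, limma adjusted p = 0.125). In Mcm3 and Mcm4 too the groups did not overlap, but the difference of replicate 2 from its own group exceeded the difference of the other 2 libraries from WT. Mcm6 had WT values of 0.850, 0.841 and 1.95 FPKM and Cfp1-cKO values of 1.63, 4.56 and 2.37 FPKM, where WT replicate 3 lay above Cfp1-cKO replicate 1. Its log2 fold change was 0.76 (standard error 0.30, limma adjusted p = 0.0915). Mcm7, whose exons share 12.6% of their bases with Ap4m1 and 4 other genes together, measured 3.90, 5.55 and 3.58 FPKM across the WT libraries, beside 3.65, 7.87 and 4.001 FPKM across Cfp1-cKO. For Mcm7 only replicate 2 lay above the WT range (log2 fold change 0.16, limma adjusted p = 0.651). Whether the authors counted fragments by strand is not stated.

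The loading factors were lower still. Cdc6, the ATPase that brings the helicase to the origin, stood at 0.110, 0.122 and 0.117 FPKM in WT, with Cfp1-cKO libraries at 0.167, 0.895 and 0.0743 FPKM, the last of these below every WT value. These values rest on 11 to 13 fragments in WT and on 17, 78 and 7 fragments in Cfp1-cKO libraries. Cdt1, its partner in loading, had WT values of 0.224, 0.389 and 0.230 FPKM and Cfp1-cKO values of 0.180, 1.36 and 0.495 FPKM, so that replicate 1 was the lowest of all 6. Both genes thus had a single high library.

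Genes of helicase activation split by their level. Gins4, a GINS subunit and the most abundant of them, measured 10.4, 7.71 and 9.22 FPKM across the WT libraries, beside 9.63, 12.5 and 10.8 FPKM across Cfp1-cKO, ranges that overlapped (log2 fold change 0.25, standard error 0.17, limma adjusted p = 0.271). Cdc45, the factor that binds the helicase together with GINS, stood at 1.29, 1.06 and 1.18 FPKM in WT, with Cfp1-cKO libraries at 1.60, 4.02 and 1.08 FPKM (log2 fold change 0.47, limma adjusted p = 0.251). Gins1 had WT values of 1.28, 2.13 and 0.769 FPKM and Cfp1-cKO values of 1.22, 2.26 and 0.622 FPKM. For Gins1 the group means were nearly equal (log2 fold change -0.04, standard error 0.30, limma adjusted p = 0.931), and in each group replicate 2 was high and replicate 3 low. Mcm10, which helps the loaded helicase to start unwinding, measured 0.0515, 0.131 and 0.0866 FPKM across the WT libraries, beside 0.0334, 0.585 and 0.101 FPKM across Cfp1-cKO, from 5 to 19 fragments except for the 75 fragments of Cfp1-cKO replicate 2. Gins3 stood at 0.520, 0.294 and 0.615 FPKM in WT, with Cfp1-cKO libraries at 0.606, 1.51 and 0.820 FPKM, with replicate 1 inside the WT range. Gins2 had WT values of 0.215, 0.0518 and 0.203 FPKM and Cfp1-cKO values of 0.226, 1.41 and 0.203 FPKM, and 67.3% of its exon bases overlap those of Gse1. In none of the 6 genes of this group were the genotypes separated.

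Among polymerases and primase, Pola1 and Pold1 did not overlap between genotypes, which in this direction held for 46.4% of all tested genes. Pola1, the catalytic subunit of the polymerase that begins each new strand, measured 0.955, 0.765 and 0.914 FPKM across the WT libraries, beside 1.11, 1.96 and 1.22 FPKM across Cfp1-cKO (log2 fold change 0.36, standard error 0.18, limma adjusted p = 0.166). Pold1, the catalytic subunit of the lagging-strand polymerase, stood at 0.898, 0.611 and 0.994 FPKM in WT, with Cfp1-cKO libraries at 1.04, 2.42 and 1.12 FPKM (log2 fold change 0.42, standard error 0.23, limma adjusted p = 0.183). In both, replicates 1 and 3 lay just above the highest WT value. Prim1, the small primase subunit, had WT values of 0.467, 0.315 and 0.933 FPKM and Cfp1-cKO values of 0.717, 3.33 and 0.703 FPKM (log2 fold change 0.59, limma adjusted p = 0.230). Pole, the catalytic subunit of the leading-strand polymerase, measured 0.146, 0.162 and 0.139 FPKM across the WT libraries, beside 0.133, 0.892 and 0.164 FPKM across Cfp1-cKO. Pole thus had the clearest single high library of the polymerases, since its other 5 values lay between 0.133 and 0.164 FPKM. Prim2, the large primase subunit, stood at 0.497, 0.581 and 0.533 FPKM in WT, with Cfp1-cKO libraries at 0.450, 1.19 and 0.701 FPKM. Pola2, the regulatory partner of Pola1, had WT values of 3.60, 3.81 and 3.29 FPKM and Cfp1-cKO values of 3.09, 5.03 and 4.46 FPKM (log2 fold change 0.17, limma adjusted p = 0.478).

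The clamp and its loader ranged widely in level. Pcna, the sliding clamp and the most abundant of the 35 genes, measured 18.7, 28.3 and 16.0 FPKM across the WT libraries, beside 24.7, 44.0 and 19.3 FPKM across Cfp1-cKO. Its groups overlapped, with WT replicate 2 above Cfp1-cKO replicates 1 and 3 (log2 fold change 0.42, standard error 0.31, limma adjusted p = 0.312). Rfc2, a clamp loader subunit, stood at 2.29, 1.67 and 2.04 FPKM in WT, with Cfp1-cKO libraries at 2.90, 3.81 and 2.98 FPKM. It was the gene least carried by replicate 2 among those that separated the genotypes (log2 fold change 0.50, standard error 0.16, limma adjusted p = 0.0581), although 15.1% of its exon bases overlap Lat2. On fragments worked back from FPKM, voom called Rfc2, with a log2 fold change of 0.68 (limma adjusted p = 0.0475), as well as Mcm2, against 23.3% of its genes called higher and 1.55% lower. Rfc4 had WT values of 3.68, 4.15 and 3.44 FPKM and Cfp1-cKO values of 4.85, 7.62 and 4.20 FPKM, and Cfp1-cKO replicate 3 exceeded WT replicate 2 only narrowly (log2 fold change 0.43, limma adjusted p = 0.140). Rfc5 measured 0.802, 0.511 and 0.607 FPKM across the WT libraries, beside 0.869, 1.80 and 0.939 FPKM across Cfp1-cKO, without overlap. Rfc3 stood at 1.52, 1.499 and 0.923 FPKM in WT, with Cfp1-cKO libraries at 1.28, 2.23 and 1.64 FPKM (log2 fold change 0.23, limma adjusted p = 0.385). Rfc1, the large subunit, had WT values of 6.35, 5.25 and 6.85 FPKM and Cfp1-cKO values of 5.33, 6.96 and 6.998 FPKM, nearly the same range in both genotypes (log2 fold change 0.05, standard error 0.17, limma adjusted p = 0.818). The 6 genes of clamp and loader hence ran from Rfc2, whose genotypes were separated, to Rfc1, whose values mingled.

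For the end of lagging-strand synthesis, Lig1 and Fen1 could not be read alike. Lig1, the replicative DNA ligase, measured 0.454, 0.460 and 0.559 FPKM across the WT libraries, beside 0.758, 3.46 and 0.728 FPKM across Cfp1-cKO, without overlap (log2 fold change 0.68, standard error 0.35, limma adjusted p = 0.162). Fen1, the flap endonuclease, was between 0.0212 and 0.124 FPKM in all 6 libraries, from 1 to 5 fragments each. Of its exon bases 84.2% are shared with Tmem258 on the opposite strand, and the part of this overlap in its low values was not tested. With so few fragments no difference in Fen1 was detectable.

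The single-strand DNA binding genes did not separate the genotypes. Rpa1 stood at 8.78, 7.74 and 9.30 FPKM in WT, with Cfp1-cKO libraries at 7.18, 9.28 and 8.78 FPKM (log2 fold change -0.03, standard error 0.16, limma adjusted p = 0.879). Rpa2 had WT values of 5.03, 6.79 and 4.27 FPKM and Cfp1-cKO values of 4.22, 6.11 and 4.75 FPKM (log2 fold change -0.07, standard error 0.20, limma adjusted p = 0.793). These are the large and middle subunits of the complex that coats single-stranded DNA in replication and repair, and for both a WT library was the highest. Rpa3, the small subunit, measured 10.4, 7.94 and 6.75 FPKM across the WT libraries, beside 8.40, 14.4 and 10.3 FPKM across Cfp1-cKO (log2 fold change 0.35, standard error 0.22, limma adjusted p = 0.243).

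Among genes of nucleotide supply, both subunits of ribonucleotide reductase separated the genotypes, as 46.4% of all tested genes did in the same direction. Rrm2, the subunit whose level follows S phase, stood at 1.27, 1.57 and 1.70 FPKM in WT, with Cfp1-cKO libraries at 1.96, 9.89 and 1.88 FPKM (log2 fold change 0.85, standard error 0.46, limma adjusted p = 0.180). Its partner Rrm1 had WT values of 2.16, 1.96 and 2.10 FPKM and Cfp1-cKO values of 2.18, 6.07 and 2.56 FPKM (log2 fold change 0.49, standard error 0.28, limma adjusted p = 0.208). The genotypes did not overlap in either gene, but Cfp1-cKO replicate 1 exceeded WT replicate 1 in Rrm1 only in the second decimal. Tk1, the thymidine kinase of dividing cells, measured 0.483, 0.296 and 0.534 FPKM across the WT libraries, beside 0.790, 3.01 and 0.854 FPKM across Cfp1-cKO, also without overlap. Tyms, thymidylate synthase, stood at 0.615, 0.497 and 0.702 FPKM in WT, with Cfp1-cKO libraries at 0.582, 2.07 and 0.966 FPKM, with replicate 1 inside the WT range.

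The ratio of Cfp1-cKO replicate 2 to the mean of replicates 1 and 3 was above 1 for all 35 genes. It was above 2 for 23 of the 35 genes, against 2.31% of all tested genes and 7.22% of genes averaging 0.1 FPKM or more. Its median was 2.28 over the 35 genes and 1.05 over all tested genes. By class, the ratio exceeded 2 in 19 of 22 replication-specific genes and in 4 of 13 genes shared with repair, with medians of 2.89 and 1.69. The classes were chosen with earlier results of these data known, so this contrast is a description only. The largest ratios were those of Mcm10 (8.70), Cdc6 (7.42), Gins2 (6.56), Pole (5.997), Rrm2 (5.14) and Mcm5 (4.86). The smallest were those of Rfc1 (1.13), Rpa1 (1.16), Gins4 (1.23), Rfc2 (1.30), Pola2 (1.33) and Rpa2 (1.36). Classes crossed at both ends, since Lig1, shared with repair, had a ratio of 4.65, and Gins4 and Pola2, replication-specific, had low ones. Genes with E2F-like letters had a median ratio of 2.28 (n = 11) and those without a median of 2.19 (n = 17), but the groups differed in class, with 8 replication-specific genes in each. Within classes the medians were 2.82 with the letters and 3.33 without for replication-specific genes, and 2.25 (n = 3) and 1.69 (n = 9) for those shared with repair. These ratios describe 1 library and have no replicate, so no test of them was made.

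**Figure D2:**
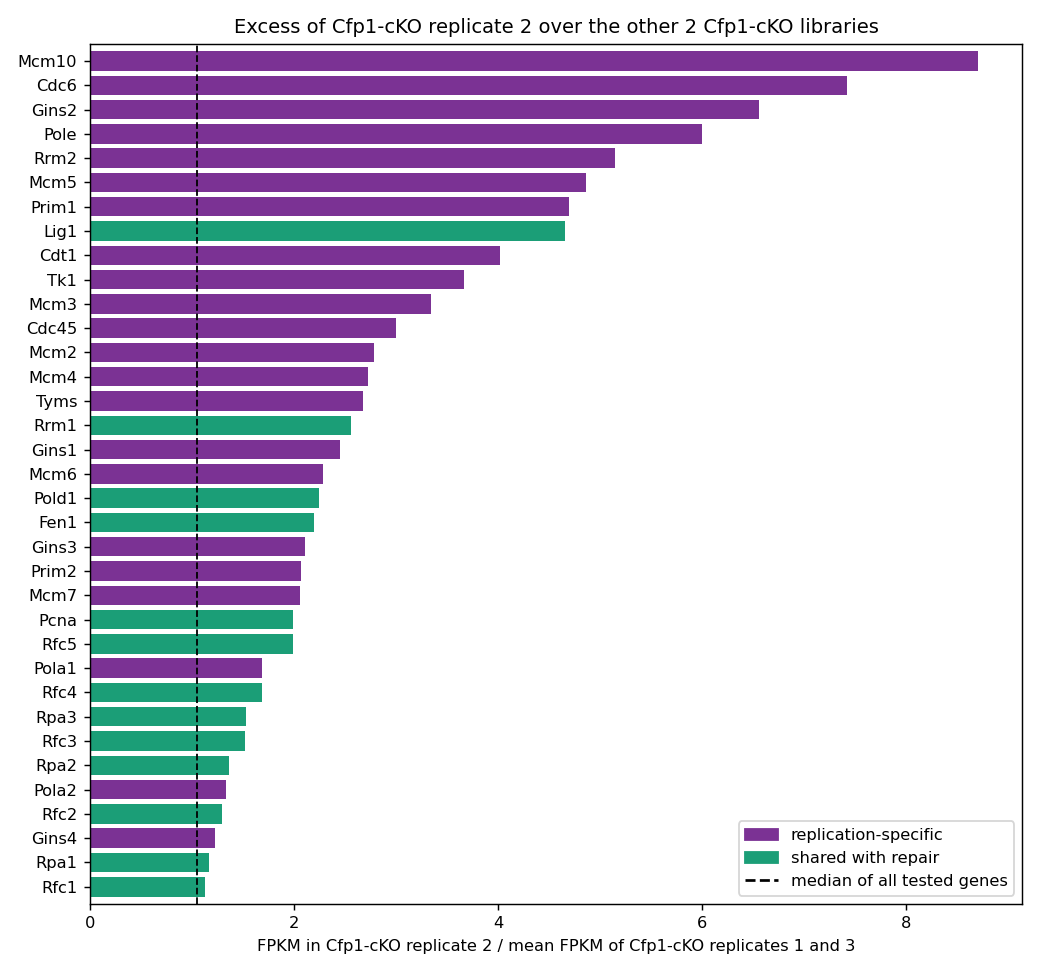
Ratio of FPKM in Cfp1-cKO replicate 2 to the mean FPKM of Cfp1-cKO replicates 1 and 3 (horizontal, linear from 0) for each of the 35 genes, coloured by class, with no error bars since the numerator is 1 library. All bars pass the dashed line at 1.05, the median of all tested genes, and the longest are mostly those of replication-specific genes.

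Without replicate 2, the median difference of the replication genes from WT was smaller than that of the tested genes. The mean of Cfp1-cKO replicates 1 and 3 over the WT mean had a median of 1.20 over the 35 genes, 1.26 over the replication-specific and 1.12 over those shared with repair. This median was 1.33 over all tested genes and 1.41 over genes averaging 0.1 FPKM or more. The 35 genes include 11 below 1 FPKM, so neither set is filtered quite like them. In 13 of the 35 genes all 3 Cfp1-cKO libraries lay above all 3 WT libraries, against 46.4% of tested genes and 44.4% of genes averaging 0.1 FPKM or more. These were Mcm2 to Mcm5, Pola1, Lig1, Rrm1, Rrm2, Tk1, Pold1, Rfc2, Rfc4 and Rfc5, 7 of them replication-specific and 6 shared with repair. In none of the 35 genes did all 3 Cfp1-cKO libraries lie below all 3 WT libraries, against 3.23% of tested genes and 2.4% of those averaging 0.1 FPKM or more. On the log2(FPKM + 1) scale the median difference from WT was 0.40 for the replication-specific genes and 0.40 for those shared with repair. It was 0.35 for all tested genes and 0.29 for genes averaging 0.1 FPKM or more. In single Cfp1-cKO libraries this median difference was 0.11, 0.91 and 0.23 for the replication-specific genes and 0.05, 0.73 and 0.20 for those shared with repair. Over all tested genes it was 0.25, 0.41 and 0.41, and over genes averaging 0.1 FPKM or more 0.20, 0.34 and 0.33. Both classes were therefore below the general difference in replicates 1 and 3 and above it in replicate 2. After median-of-ratios scaling, which sets the median difference of all tested genes to 0.00, the class medians were 0.20 and -0.01.

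**Figure D3:**
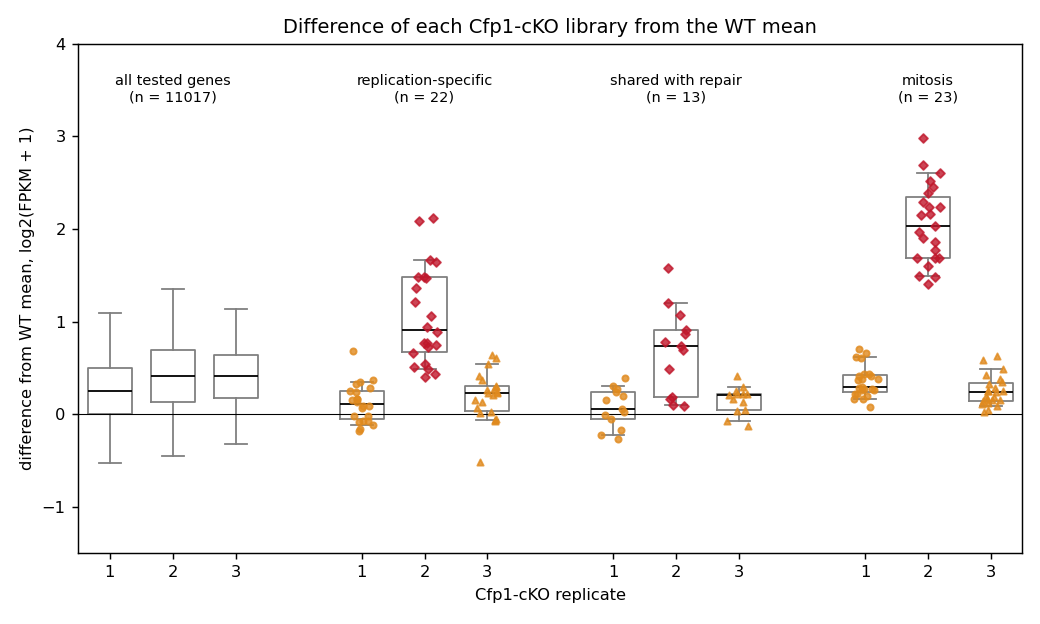
Difference of each Cfp1-cKO library from the WT mean on the log2(FPKM + 1) scale (vertical) for all tested genes, the 22 replication-specific genes, the 13 genes shared with repair and the 23 mitosis genes. Points are genes, boxes span the quartiles with the median as a line, and whiskers reach percentiles 5 and 95. The medians of replicate 2 are 0.91 and 0.73 for the replication classes and 0.41 for all tested genes.

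Mitosis genes peaked in the same library, with larger ratios. All 23 listed mitosis genes were highest in Cfp1-cKO replicate 2, and their median was 0.278, 0.143 and 0.383 FPKM in WT and 0.596, 4.22 and 0.498 FPKM in Cfp1-cKO libraries. None of the 13 tested was called in limma, beside the 21.1% of all tested genes called higher, and 3 had an unadjusted p below 0.05, beside 43.8%. All 23 had a WT mean below 1 FPKM, the highest being 0.837 FPKM in Cdc20. The 13 therefore passed the filter only through their Cfp1-cKO values, and their counts beside these shares carry that limit. Top2a, the topoisomerase that untangles sister chromatids, had WT values of 0.303, 0.206 and 0.702 FPKM and Cfp1-cKO values of 1.19, 9.99 and 0.862 FPKM (log2 fold change 1.36, limma adjusted p = 0.114). The ratio of replicate 2 to the other 2 Cfp1-cKO libraries had a median of 7.91 over the mitosis genes, from 4.04 to 13.4, beside 2.28 over the replication genes. Mki67, Ccnb2 and Cdc20, which the same rule named, had ratios of 8.59, 5.81 and 5.26.

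The other replication genes, 80 in all, were listed for the wider pathway, and 55 of them were tested. Of these, 7 were called higher and none lower, beside the 21.1% and 1.68% of all tested genes. Those called were the cyclins Ccnd1, Ccnd2 and Ccnd3, which start the passage into S phase, the transcription factors E2f3 and E2f4, and the accessory polymerase subunits Pold4 and Pole4. The 7 called had WT means above 1 FPKM. Some others of the 55, Ccna2 and Rbl1 among them, had WT means below 1 FPKM. These passed the filter only through their Cfp1-cKO values, and the count of 7 of 55 carries that limit. Ccnd1 measured 0.739, 1.71 and 1.498 FPKM across the WT libraries, beside 5.81, 11.4 and 5.71 FPKM across Cfp1-cKO, so that every Cfp1-cKO value exceeded the highest WT value (log2 fold change 1.86, standard error 0.28, limma adjusted p = 0.00565). It was the only one of the 7 still called without Cfp1-cKO replicate 2 (limma adjusted p = 0.0134) and the only one still called higher after median-of-ratios scaling (limma adjusted p = 0.0173), under which Gmnn and Cdkn1b, inhibitors of licensing and of cyclin-dependent kinases, were called lower. E2f4 stood at 3.47, 3.94 and 4.42 FPKM in WT, with Cfp1-cKO libraries at 6.76, 8.56 and 8.20 FPKM (log2 fold change 0.84, limma adjusted p = 0.0123). E2f3 had WT values of 1.17, 1.08 and 1.71 FPKM and Cfp1-cKO values of 2.87, 3.40 and 3.03 FPKM (log2 fold change 0.83, limma adjusted p = 0.0153). In E2f3 and E2f4 the 3 Cfp1-cKO libraries lay close together, with ratios of replicate 2 to the other 2 of 1.153 and 1.145.

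The remaining calls were smaller. Pold4 measured 7.02, 4.61 and 5.55 FPKM across the WT libraries, beside 10.0, 9.82 and 12.6 FPKM across Cfp1-cKO, highest in replicate 3 (log2 fold change 0.82, limma adjusted p = 0.0205). Pole4 stood at 7.55, 5.88 and 8.37 FPKM in WT, with Cfp1-cKO libraries at 11.1, 14.4 and 11.2 FPKM (log2 fold change 0.68, limma adjusted p = 0.0309). Ccnd2 had WT values of 4.94, 4.68 and 7.48 FPKM and Cfp1-cKO values of 8.19, 11.97 and 9.40 FPKM (log2 fold change 0.71, limma adjusted p = 0.0423). Ccnd3 measured 2.61, 2.54 and 2.84 FPKM across the WT libraries, beside 3.95, 6.47 and 4.09 FPKM across Cfp1-cKO (log2 fold change 0.65, limma adjusted p = 0.0420). None of these groups overlapped, and in Pole4, Ccnd2 and Ccnd3 replicate 2 was the highest. Below the filter, E2f2 was at 0.0435 to 0.0683 FPKM in WT, with Cfp1-cKO libraries at 0.536, 1.08 and 0.796 FPKM, and E2f1 at 0.112 to 0.317 FPKM in WT, with Cfp1-cKO libraries at 0.618, 2.59 and 0.774 FPKM. With the 0.1 FPKM filter E2f2 was called higher (log2 fold change 0.76, limma adjusted p = 0.0134), also without Cfp1-cKO replicate 2 (limma adjusted p = 0.0281), and E2f1 was not (log2 fold change 0.84, limma adjusted p = 0.0739). At that filter 6 of 79 other replication genes were called higher and none lower, beside the 14.9% and 0.944% of all such genes. Both are activating E2F factors, and in both every Cfp1-cKO library exceeded every WT library. These 2 genes were picked out after their values were seen. E2f2 had a WT mean of 0.0553 FPKM, from 4 to 6 fragments per WT library. It thus passed the 0.1 FPKM filter only through its Cfp1-cKO values, and its calls carry that limit.

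In the rest of the pathway no gene was called, and the 2 tested genes with the largest log2 fold change in each list are given here. They were Ccna2 (1.21, limma adjusted p = 0.140) beside Ccnd1 among the cyclins and kinases, Asf1b (0.88, limma adjusted p = 0.0705) and Atad2 (0.81, limma adjusted p = 0.0914) in chromatin replication, Dck (0.74, limma adjusted p = 0.0626) and Shmt1 (0.60, limma adjusted p = 0.0543) in nucleotide supply, and Orc3 (0.37, limma adjusted p = 0.0826) and Orc2 (0.31, limma adjusted p = 0.147) in origin recognition. Ccna2, the S phase cyclin, stood at 0.313, 0.130 and 0.748 FPKM in WT, with Cfp1-cKO libraries at 1.09, 8.40 and 0.625 FPKM, again a single high library. Orc3, a subunit of the origin recognition complex, had WT values of 6.97, 8.22 and 7.13 FPKM and Cfp1-cKO values of 10.5, 9.70 and 9.46 FPKM, and replicate 2 did not stand out. Across the 80 genes, 62 were highest in Cfp1-cKO replicate 2, and the median ratio of that library to the other 2 was 1.61.

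**Figure D4:**
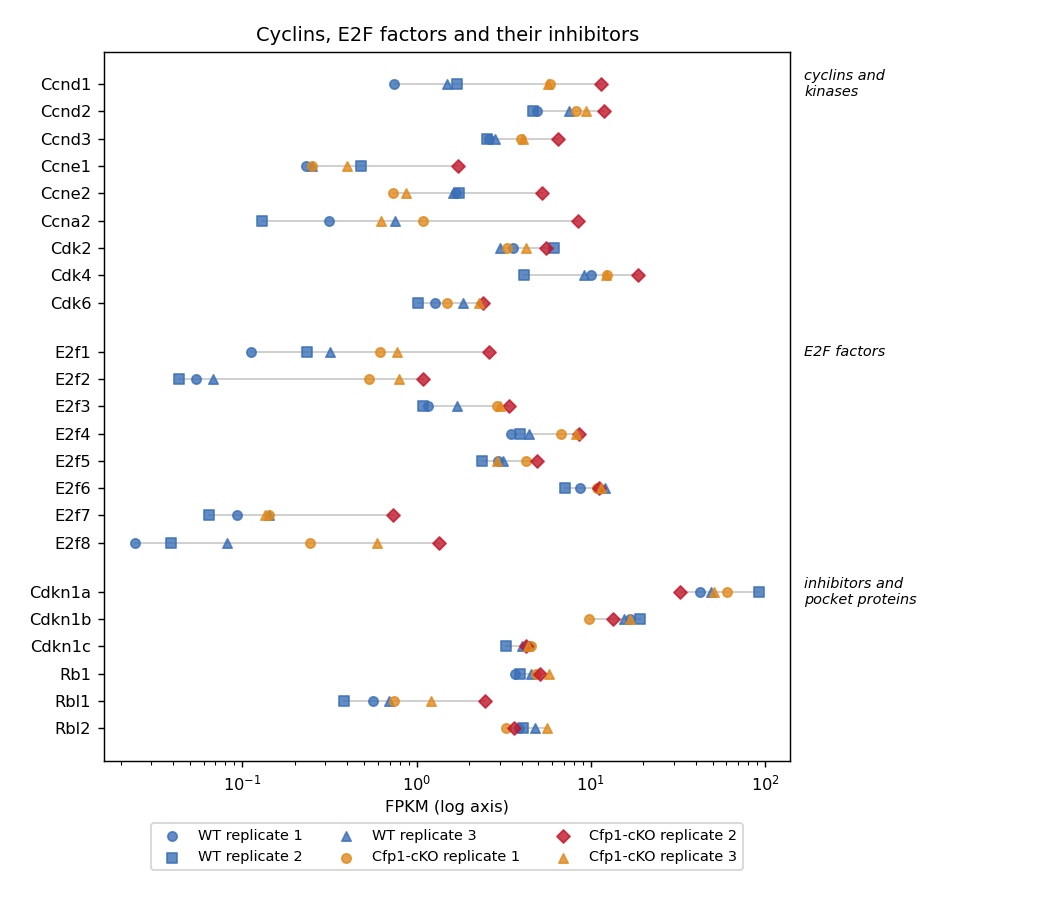
FPKM (horizontal, log axis) of cyclins and kinases, E2F factors, and inhibitors with pocket proteins, with 1 point per library and no error bars. All Cfp1-cKO points lie to the right of all WT points in Ccnd1, Ccnd2, Ccnd3, Cdk4, E2f1, E2f2, E2f3, E2f4, E2f8, Rb1 and Rbl1. The same held for 46.4% of all tested genes and 44.4% of genes averaging 0.1 FPKM or more. In E2f7 only replicate 2 stands clear, and in Ccne2 replicate 2 lies above and replicates 1 and 3 below all WT points.

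Marker lists of other cells were read beside the high values of Cfp1-cKO replicate 2, and their part in the replication results was not tested. For the counts below, 34.2% of all tested genes were highest in that library, and 34.8% of genes averaging 0.1 FPKM or more. Lung epithelium markers were not at their highest there, at 4500, 3162 and 4795 FPKM in Cfp1-cKO replicates 1, 2 and 3, and 0 of 12 genes peaked in replicate 2. Thymocyte markers, 12 of 14 in the table, summed to 1.24 to 1.62 FPKM in WT and 3.22, 2.90 and 3.84 FPKM in Cfp1-cKO libraries, 4 of 12 peaking in replicate 2, with Satb1 at 0.850 to 1.64 FPKM over the 6 libraries and Ptcra at 0 in all WT libraries. B lymphocyte markers, 6 genes, summed to 1.96 to 2.30 FPKM in WT and 4.02, 4.72 and 3.60 FPKM in Cfp1-cKO libraries, with 4 of 6 highest in replicate 2. Erythroid precursor markers, 7 genes led by the haem synthesis gene Alas2, summed to 1.56, 9.28 and 1.70 FPKM in WT and 17.1, 33.9 and 2.86 FPKM in Cfp1-cKO libraries, and 5 of 7 were highest in replicate 2. Alas2 alone was at 15.7, 28.3 and 2.03 FPKM in Cfp1-cKO libraries. Gata1 was highest in replicate 1, and Klf1, at 0.0694 to 0.144 FPKM in WT, was 0 in all Cfp1-cKO libraries. Both had 5 fragments or fewer per library. Fibroblast markers, 8 genes, summed to 303.0 to 410.1 FPKM in WT and 507, 730 and 476 FPKM in Cfp1-cKO libraries, with 6 of 8 highest in replicate 2. Endothelial markers, 8 genes, summed to 135 to 180 FPKM in WT and 202, 252 and 179 FPKM in Cfp1-cKO libraries, with 5 of 8 highest in replicate 2. Macrophage markers, 8 genes, summed to 47.2 to 61.7 FPKM in WT and 108, 105 and 66.6 FPKM in Cfp1-cKO libraries, with 4 of 8 highest in replicate 2. Cardiomyocyte markers had their lowest sum of all 6 libraries, 13129 FPKM, in Cfp1-cKO replicate 2. The summed levels of fibroblast, endothelial, erythroid and B lymphocyte markers thus peaked in replicate 2, as the replication genes did, and those of lung, thymocyte and macrophage markers did not. Of the tested markers, 11 of 11 were called higher for lung epithelium, 3 of 7 for macrophages, 2 of 8 for endothelium and 1 of 8 for fibroblasts, while 3 of 10 cardiomyocyte markers were called lower and 1 higher. Of all tested genes 21.1% were called higher and 1.68% lower. Except for Abca3, the 11 lung genes had a WT mean below 1 FPKM. They passed the filter only through their Cfp1-cKO values, and their count carries that limit. The markers with the highest means were Actc1, Mb and Myl2 for cardiomyocytes, Pecam1, Cdh5 and Egfl7 for endothelium, Dcn, Col3a1 and Lum for fibroblasts, C1qa, C1qb and C1qc for macrophages, Sftpc, Scgb1a1 and Sftpb for lung epithelium, Satb1, Tcf7 and Lck for thymocytes, Ebf1, Cd79a and Cd79b for B lymphocytes, and Alas2 and Epor for erythroid precursors.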

How the data were processed

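RNA of 3 WT and 3 Cfp1-cKO mouse hearts was sequenced, and the authors deposited FPKM values per gene in a plain and an annotated table, equal for all 26881 genes. The submitters' processing notes name CASAVA, Bowtie2 2.2.3, HISAT2 2.1.0, TopHat2, HTSeq 0.6.0, DESeq2 and GRCm38, without their order, whereas the paper's methods give the address of a chicken genome. Extraction text in the labels names retina, and its relation to these hearts is not given in the sources used here.

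A linear model of log2(FPKM + 1) on genotype was fitted in limma 3.58.1 (lmFit and eBayes with a variance trend, R 4.3.3) to the 11017 genes averaging 1 FPKM or more. The p-values were adjusted by Benjamini-Hochberg over these genes. Calls required an adjusted p under 0.05 with a log2 fold change beyond 0.5 either way. The replication genes, their classes and the other gene lists were chosen with earlier results of these data known. All 35 replication genes are given with values, as are Cxxc1 and the called genes. Also named are the 2 tested genes with the largest change of each pathway list, and the mitosis and marker genes with the highest means, except 1 marker that is not reported here. Groups came from the genotype labels.

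Fragments were worked back from FPKM with union exon lengths of GENCODE mouse release M21, which gave whole numbers within 0.02 in all 6 libraries for 23961 genes (89.1%), 32 of the 35 replication genes among them. Cdc45, Pola2 and Rfc4 were the exceptions. voom ran on the 9211 tested genes with whole fragments. The procedure was tested on simulated data. Alternatives were another pseudocount, other filters, median-of-ratios scaling, removal of mitochondrial and haemoglobin genes, no variance trend, no fold threshold, voom, the replicate number as a block, and each library left out. Tables and plots used Python 3.11.15 with numpy 2.4.6, pandas 2.3.3 and matplotlib 3.10.9.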

Additional observations from a re-analysis of the deposited data

How the results depend on the processing

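Of all tested genes, 2510 were called between the genotypes. The count was 1609 with no filter, 770 with median-of-ratios scaling and 1559 without mitochondrial and haemoglobin genes, and ran from 588 (without Cfp1-cKO replicate 2) to 2789 (without WT replicate 3) when each library was left out, with 680 without WT replicate 1 and 1086 without Cfp1-cKO replicate 3. Of the replication genes, 0 were called higher with the 0.1 FPKM filter, 0 with no filter, 0 with median-of-ratios scaling and 0 without mitochondrial and haemoglobin genes, and 2 with voom. Leaving out each library gave between 0 and 2, with Mcm6 (log2 fold change 0.99, limma adjusted p = 0.0492) joining Mcm2 without WT replicate 3. None was called lower under any alternative. The other replication genes called, 7 at first, were 3 with median-of-ratios scaling, 4 without mitochondrial and haemoglobin genes, and 1 (without Cfp1-cKO replicate 2) to 8 with each library left out, with 2 without WT replicate 1. The median of the genes shared with repair became -0.0056 with median-of-ratios scaling.

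Same-numbered WT and Cfp1-cKO libraries share only a number in the labels, and their deviations correlated at 0.11, 0.04 and 0.10, each library most with its own number. With the replicate number as a block, 1749 genes were called, 0 of them replication genes and 4 other replication genes.

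Alternatives added after seeing the data left out Cfp1-cKO replicate 2 together with another change. With the 0.1 FPKM filter, voom or median-of-ratios scaling, respectively, they called 740, 528 and 224 genes, 0, 0 and 0 replication genes, and 2, 2 and 0 other replication genes. Library weights, also added, called 4399 genes, 12 replication genes (with 36.6% of all tested genes called higher) and 21 others, and gave WT replicate 1 a weight of 7.97 against 0.303 to 1.56 for the other libraries. Voom with the 0.1 FPKM filter called Mcm2 and 11 other replication genes, where 22.8% of its 15311 genes were called higher and 1.09% lower.

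The log2 fold changes of replication genes that turned sign were all uncalled. With median-of-ratios scaling they were those of Gins4 (-0.16), Mcm7 (-0.20), Pcna (-0.0056), Pola2 (-0.19), Rfc1 (-0.33), Rfc3 (-0.044) and Rpa3 (-0.052). With that scaling and without Cfp1-cKO replicate 2 they were those of Cdc45 (-0.13), Gins4 (-0.22), Mcm4 (-0.0059), Mcm7 (-0.46), Pcna (-0.30), Pola1 (-0.0036), Pola2 (-0.28), Pold1 (-0.013), Prim1 (-0.0093), Rfc1 (-0.36), Rfc3 (-0.15), Rfc4 (-0.12), Rpa3 (-0.21), Rrm1 (-0.15) and Rrm2 (-0.038). Without that library, Mcm7 and Rfc1 were at -0.13 and -0.0011 with the 0.1 FPKM filter and at -0.16 and -0.0034 with voom. With library weights Gins1 was at 0.15 and Rpa2 at 0.069. Leaving out each library in turn, Gins1 ranged from -0.30 to 0.21, Mcm7 from -0.13 to 0.34, Rfc1 from -0.041 to 0.16, Rpa1 from -0.10 to 0.065 and Rpa2 from -0.20 to 0.084. The cause of these changes was not tested. Of 471 single-gene values under alternatives, 407 kept their direction and their side of the threshold, 38 changed direction, 13 passed the threshold anew and 13 no longer passed it. Fewer than 20 fragments in at least 1 library stood behind 7 replication genes, Cdc6, Cdt1, Mcm10, Gins1, Gins2, Gins3 and Fen1.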
